A study of Homo sapiens with 75 samples.

Results

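Irradiated BJ cells at 6 h were compared with irradiated BJ cells at 3 h, to follow how the shutdown of the cell cycle goes on after a dose of 5 Gy. BJ is a line of human skin fibroblasts. The comparison was chosen by the array labels alone and holds 6 of the 75 arrays of the series, 3 titled irradiated 6 h and 3 titled irradiated 3 h. The series covers 5 human cell lines with 5 groups of 3 arrays each. The BJ groups used here were irradiated 6 h, irradiated 3 h, untreated 6 h, untreated 3 h and untreated 0 h. All BJ cells were grown in DMEM with fetal calf serum, the irradiated ones received 5 Gy of ionizing radiation, and the untreated ones went through the same handling without the radiation. Irradiated cells of the osteosarcoma line U2OS and the B lymphoblastoid line TK6 at 6 h and 3 h served to test where BJ differed from other lines. BJ stands here for 1 line of normal fibroblasts, and no label says that the arrays of a group were separate cultures. The p-values therefore speak of array-to-array spread, possibly technical, and not of spread between cultures.

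Ionizing radiation breaks DNA, and the kinases that sense the breaks stabilise the transcription factor p53. p53 switches on the inhibitor p21 (gene CDKN1A), which blocks cyclin-dependent kinases. Repressor complexes that contain RB-family proteins then hold down genes with E2F sites, which serve the start of S phase, and genes with a cell cycle homology region in the promoter, which serve mitosis. p53 also switches on its own inhibitors, among them the ubiquitin ligase MDM2 and the phosphatase Wip1 (gene PPM1D), so that its early output can fade while slower targets still build up.

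Each array gave 1 value per gene on the log2 scale, so a difference of 1 is a change of 2-fold. Of 19775 genes with a value, 14467 passed a limit on the mean level over the 15 BJ arrays (above 3.47 log2, the 40th percentile of all probe sets) and were tested with limma. Called means an adjusted p (Benjamini-Hochberg) below 0.05, and rose or fell is used of called genes only. The medians of the 15 BJ arrays lay between 3.92 and 4.0 log2, and the lowest correlation within a group was 0.986. All 12 fibroblast markers measured were well above the limit, with group means between 9.39 and 13.68 log2, and 11 of 22 measured markers of other cell types were below it. The highest of the other 11 was KRT18, a keratin, at 11.5 log2. None of the 12 fibroblast markers and none of the 11 tested markers of other cells was called between 6 h and 3 h, and 0 of each reached an unadjusted p under 0.05. The difference between the 5′ and the 3′ probe sets of actin, a sign of RNA quality, was -0.76, -1.07 and -0.60 log2 at 6 h after irradiation, against -0.77, -1.14 and -1.27 at 3 h, with overlap. The same difference for GAPDH was 0.0943, 0.110 and 0.099 log2 at 6 h, against 0.0569, -0.0217 and -0.0056 at 3 h, so the groups did not overlap in that sign. The part of RNA quality in the results was not tested.

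One irradiated array stood apart from its group in the outcome of interest. Averaged over the 80 genes of the 4 mitotic lists described below, and relative to the untreated 0 h arrays, the level in replicates 1, 2 and 3 was -1.30, -1.32 and -1.32 log2 at 6 h after irradiation, against -1.05, -0.07 and -0.94 at 3 h. In untreated cells at 3 h the levels of replicates 1, 2 and 3 were -0.73, 0.02 and -0.21. Replicate 2 was thus the highest and replicate 1 the lowest at 3 h in both conditions. Whether arrays of the same number shared a culture or handling was not tested. Replicate 2 at 3 h after irradiation had its mitotic genes near the untreated level, while the other 2 arrays of its group were nearer to the 6 h level. Its p53 response was that of an irradiated array: the mean of 8 p53 feedback genes was 0.74 log2 above 0 h in it, and 0.82 and 0.73 in replicates 1 and 3, against -0.19 to 0.13 in the untreated arrays at 6 h and 3 h. The values of each gene list that rest on the 3 h arrays are therefore also given without that array where they moved.

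Of the 14467 genes tested, limma called 17 between 6 h and 3 h after irradiation (0.118%). The 10 that rose (0.0691%) were led by genes of cellular stress. The 7 that fell (0.0484%) held a pair of genes from the list for the entry into S phase, a p53 feedback gene and heme oxygenase. At least 2-fold were 4 of the rises and 3 of the falls. At an unadjusted p under 0.05, 512 genes were higher (3.54%) and 538 lower (3.72%), and the median change of all genes was 0.01 log2. With replicate 2 at 3 h left out, 9 genes were called, of which 7 were among the 17, and leaving out any other array or any replicate number also gave fewer calls (1 to 9 over these fits).

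Among the rises, CHAC1, a glutathione-degrading enzyme and classical target of the stress factor ATF4, had the smallest p. CHAC1 was at 7.65, 7.57 and 7.75 log2 at 6 h, against 5.60, 5.90 and 5.67 at 3 h, a rise of 1.93 ± 0.16 log2 (SE) or 3.81-fold, with an adjusted p of 1.75e-05. The groups were far apart, with no array of one near the other. DDIT3, which encodes the transcription factor CHOP of the same pathway, was at 9.84, 9.82 and 9.75 log2 at 6 h, against 8.35, 8.16 and 8.53 at 3 h, a rise of 1.45 ± 0.15 (adjusted p = 0.000313). DDIT4, an inhibitor of the growth kinase mTORC1, was at 9.81, 9.44 and 9.69 log2 at 6 h, against 7.22, 7.59 and 8.06 at 3 h. That was the largest rise among the called genes, 2.02 ± 0.27 or 4.05-fold (adjusted p = 0.00473), and the 3 h arrays were more spread than the 6 h ones.

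RASGRP1, an activator of Ras proteins, was at 5.36, 4.90 and 4.87 log2 at 6 h, against 3.31, 3.83 and 3.53 at 3 h (1.48 ± 0.24, adjusted p = 0.0283). Its 3 h arrays lay around the limit of the level filter, so the fold of 2.80 may understate the change. The other 6 rises were smaller. They were those of 2 repressors of transcription, NFIL3 (0.78 ± 0.13) and BCL6 (0.66 ± 0.11), STARD13 (0.72 ± 0.10), the phosphatase subunit PPP1R10 (0.69 ± 0.12), the secreted glycoprotein STC2 (0.52 ± 0.10) and the translation initiation factor EIF5 (0.39 ± 0.07), with adjusted p between 0.00473 for STARD13 and 0.0488 for STC2. In all 10 genes that rose, the 3 arrays at 6 h lay above the 3 arrays at 3 h.

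The largest fall among the called genes was that of ZNF367, a zinc finger gene placed on the G1/S list described below. ZNF367 was at 5.13, 4.70 and 4.76 log2 at 6 h, against 6.26, 7.55 and 6.20 at 3 h, and fell by 1.81 ± 0.32 log2, or 3.51-fold (adjusted p = 0.0286). CDC25A, the phosphatase that activates CDK2 and is destroyed after DNA damage, was at 4.30, 4.07 and 4.26 log2 at 6 h, against 5.52, 6.20 and 5.64 at 3 h (fell by 1.58 ± 0.27, adjusted p = 0.0286). In both genes replicate 2 was the highest of the 3 h arrays, yet all 3 arrays at 3 h lay above all 3 at 6 h. When replicate 2 at 3 h was left out the change was -1.37 log2 in each and neither gene was called.

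HMOX1, heme oxygenase 1, was at 8.23, 7.68 and 7.45 log2 at 6 h, against 8.84, 8.68 and 9.02 at 3 h, and fell by 1.06 ± 0.17. PPM1D was at 8.32, 8.30 and 8.35 log2 at 6 h, against 8.94, 9.19 and 9.14 at 3 h, and fell by 0.77 ± 0.13 (adjusted p = 0.0286). The remaining falls were PPRC1, a coactivator of nuclear genes for mitochondria (fell by 0.62 ± 0.11), JMJD6, a hydroxylase (fell by 0.60 ± 0.10), and IER5, an immediate early gene (fell by 0.56 ± 0.10). Of the 17 genes, CHAC1 and DDIT3 were still called after each of the 6 arrays had been left out in turn (largest adjusted p 0.000429 and 0.00457), and all 17 kept their direction. STARD13 was called in 5 of these 6 fits, DDIT4 in 4, HMOX1 in 2, RASGRP1, NFIL3 and BCL6 in 1 each, and the other 9 in none.

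The genes next in order of p were not called. On the higher side these were SESN2, MYC, the adaptor LURAP1L (1.22 ± 0.24 log2), the RNA cleavage factor CSTF3 (0.60 ± 0.12) and the protocadherin PCDH18 (0.45 ± 0.09), with adjusted p between 0.0648 and 0.1. On the lower side they were CCNE2, KIF14, ZCCHC2 (-0.63 ± 0.12), the G-protein regulator RGS4 (-0.87 ± 0.17), MFHAS1 (-0.56 ± 0.11), PFKFB3, an enzyme that drives glycolysis (-0.74 ± 0.15), the SUMO ligase ZNF451 (-0.38 ± 0.08) and AMD1, an enzyme of polyamine synthesis (-0.43 ± 0.09), with adjusted p between 0.0602 and 0.105. In untreated cells RGS4 and ZNF451 had nearly the same differences (-0.81 and -0.35 log2), while CCNE2 was at 0.21.

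**Figure D1:**
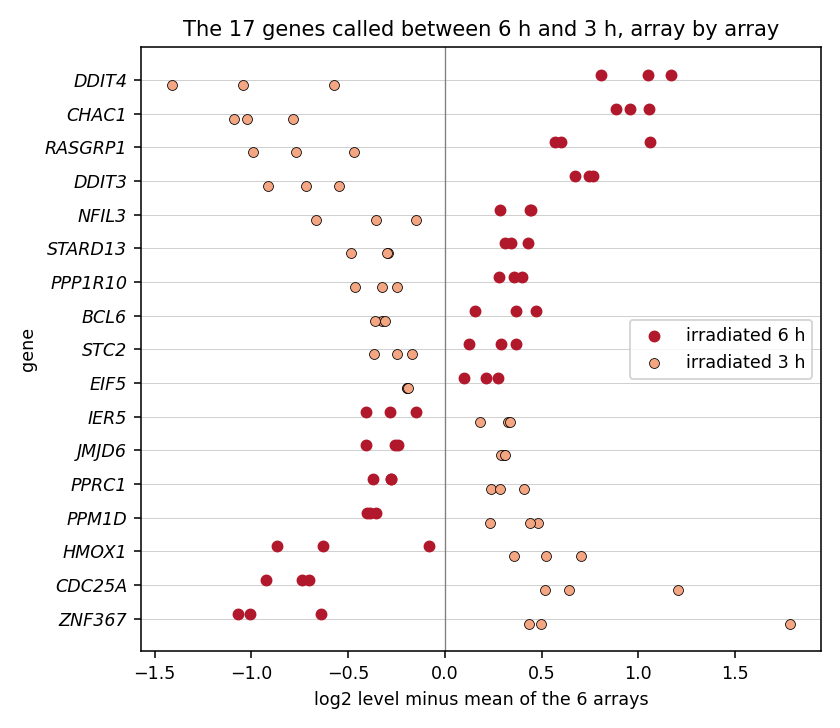
Level of each of the 17 called genes in the 6 irradiated BJ arrays, as log2 minus the mean of the 6 arrays (x axis), with irradiated 6 h above irradiated 3 h in each row. DDIT4 and CHAC1 are farthest apart among the rises, and in ZNF367 and CDC25A 1 array at 3 h stands out to the right.

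The promoters of CDC25A, ZNF367 and CHAC1 are shown because E2F sites are the letters through which genes of the first kind are known to be held down, and because ATF4 acts on CHAC1 through an element of its promoter. Each is RefSeq sequence of build GRCh38.p14, the 250 bases before the start site, 5′ to 3′ on the gene's strand. Capitals mark, on either strand, the E2F letters TTTCCCGC, TTTGGCGC, TTTGCCGC or TTTCGCGC, the CCAAT box CCAAT, the cell cycle homology region TTTGAA, and TGATGNAA, an element read by ATF4 with C/EBP factors, which was added after the values had been seen.
CDC25A, chr3:48188418-48188667, minus strand: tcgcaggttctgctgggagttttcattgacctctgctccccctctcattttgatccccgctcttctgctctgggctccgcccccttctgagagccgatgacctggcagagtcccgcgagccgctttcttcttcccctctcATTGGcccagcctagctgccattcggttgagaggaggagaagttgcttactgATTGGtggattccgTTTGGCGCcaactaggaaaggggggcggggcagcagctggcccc
ZNF367, chr9:96418371-96418620, minus strand: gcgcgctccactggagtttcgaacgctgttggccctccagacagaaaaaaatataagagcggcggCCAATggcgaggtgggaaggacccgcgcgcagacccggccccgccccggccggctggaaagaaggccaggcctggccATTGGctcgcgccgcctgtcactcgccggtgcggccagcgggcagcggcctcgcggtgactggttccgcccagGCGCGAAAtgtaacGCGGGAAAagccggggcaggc
CHAC1, chr15:40953221-40953470, plus strand: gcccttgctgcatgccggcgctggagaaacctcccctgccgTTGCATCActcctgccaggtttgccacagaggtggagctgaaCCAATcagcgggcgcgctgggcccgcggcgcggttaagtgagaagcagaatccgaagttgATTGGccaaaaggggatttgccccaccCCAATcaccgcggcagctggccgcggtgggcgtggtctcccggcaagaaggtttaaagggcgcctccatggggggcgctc

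CDC25A held 1 E2F match, at position -44 from the start, and ZNF367 held 2, at -35 and -21. The ATF4 element of CHAC1 was at -209, ahead of 3 CCAAT boxes. Over windows of 300 bases (250 before and 50 after the start), an E2F match was found in 8 of 16 promoters of the G1/S list (50%) and in 17 of 33 of the replication list (51.5%). It was in 908 of all 27305 promoters (3.33%). List members were limited to genes tested in BJ, and of the 11564 promoters of such genes 5.01% held it. The ATF4 element was in 4 of 17 promoters of the stress list (23.5%), in 3.67% of all and in 1.93% of those of genes tested in BJ. The windows of DDIT3, DDIT4, SESN2 and STC2 held no match to it. These are matches of letters over the list members that the RefSeq table held, each motif was counted on its own whether or not it shared letters with another, and a match does not show that a factor binds.

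The untreated cells went through the same interval and share no array with the irradiated ones. Between 6 h and 3 h without irradiation, 3 genes were called (0.0207%). CHAC1 rose by 1.49 ± 0.16 log2 in untreated cells (7.29, 7.49 and 7.68 at 6 h, against 5.59, 6.16 and 6.23 at 3 h, adjusted p = 0.00037). HMOX1 fell by 1.09 ± 0.17 (7.73, 7.39 and 7.29 log2 at 6 h, against 8.57, 8.45 and 8.66 at 3 h, adjusted p = 0.0459). The untreated rise of SESN2, a stress-induced inhibitor of mTORC1, was 1.12 ± 0.10 (8.09, 8.23 and 8.28 at 6 h, against 7.17, 6.98 and 7.09 at 3 h, adjusted p = 3.41e-05).

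Of the 10 genes that rose after irradiation, all 10 were also higher at 6 h than at 3 h in untreated cells, 7 of them at an unadjusted p under 0.05, where 1.06% of all genes were higher at that threshold. DDIT4 was higher by 1.44 ± 0.27 log2 and DDIT3 by 0.71 ± 0.15 in untreated cells, neither of them called. The genes were chosen by their change after irradiation, so the sizes in the 2 conditions are not compared here. Of the 7 genes that fell, 4 were lower in untreated cells too, and 3 of these (HMOX1, PPRC1 and JMJD6) reached an unadjusted p under 0.05, against 1.27% of all genes. ZNF367 (-0.08 ± 0.32) and CDC25A (0.10 ± 0.27) were near 0 there.

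The difference between the time changes was tested directly, as irradiated minus untreated. The test by limma called 0 of 14467 genes (0%), and 302 had an unadjusted p under 0.05. The smallest adjusted p was 0.259, for the DNA damage gene GADD45A and for PPM1D. GADD45A differed by -0.65 ± 0.12 log2: it was at 10.34, 10.30 and 10.55 log2 at 6 h after irradiation, against 10.59, 10.65 and 10.45 at 3 h, while untreated cells had 10.06, 10.00 and 10.18 at 6 h, against 9.55, 9.63 and 9.60 at 3 h. So the irradiated arrays overlapped between the times and the untreated ones did not. The difference was -1.06 ± 0.19 for PPM1D, -1.68 ± 0.38 for CDC25A (95% interval -2.48 to -0.89) and -1.73 ± 0.45 for ZNF367 (-2.68 to -0.78), none of them called.

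The G1/S genes are the cyclins, E2F factors and regulators that carry a cell from G1 into S phase. Of 21 tested, 2 fell (CDC25A and ZNF367) and 0 rose, where 0.0484% and 0.0691% of all genes did. In all, 9 were lower at an unadjusted p under 0.05, against 3.72% of all genes. The median was -0.29 log2, beside 0.01 for all genes and -0.04 for the same list in untreated cells. Without replicate 2 at 3 h, 3 were lower at that threshold and the median was -0.18. CCNE2, cyclin E2, had the largest difference of the list, at 4.11, 3.95 and 3.32 log2 at 6 h, against 5.10, 6.75 and 5.32 at 3 h. Its groups did not overlap, but with a change of -1.93 ± 0.41 and an adjusted p of 0.105 it was not called, and its 6 h arrays were around the limit of the level filter. CCNE1, cyclin E1, differed by -0.46 ± 0.16 log2 and CCND1, cyclin D1, by -0.24 ± 0.15, neither called, and E2F1 was within its spread (-0.13 ± 0.15). E2F7, a repressor that p53 induces, was at 6.50, 6.48 and 6.40 log2 at 6 h, against 6.76, 8.20 and 7.22 at 3 h, with replicate 2 at 3 h the highest of the 6.

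In the list of origin licensing and replication forks, none of 36 genes was called by limma, and 35 of 36 were below 0. At an unadjusted p under 0.05, 8 were lower, against 3.72% of all genes. The median was -0.40 log2 (-0.04 in untreated cells). MCM10, which loads polymerase at origins, was at 3.70, 3.97 and 4.07 log2 at 6 h, against 4.36, 5.89 and 4.55 at 3 h. CDT1, the licensing factor, was at 4.59, 4.60 and 4.62 log2 at 6 h, against 4.84, 6.18 and 5.84 at 3 h. The 6 h arrays lay below the 3 h arrays in both, at unadjusted p of 0.0189 and 0.0207. The licensing factor CDC6 (-0.82 ± 0.38) and the helicase subunit MCM2 (-0.40 ± 0.22) overlapped between the times. With replicate 2 at 3 h left out, 0 of the 36 were lower at an unadjusted p under 0.05 and the median was -0.12.

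Among 9 genes of nucleotide supply, 0 were called, and the median was -0.21 log2. The ribonucleotide reductase subunit RRM2, which was lower, was the 1 that reached an unadjusted p under 0.05, against 3.72% of all genes. When replicate 2 at 3 h was left out, 0 of the 9 reached it and the median was 0.0018. RRM2 was at 8.69, 8.81 and 8.65 log2 at 6 h, against 8.93, 10.47 and 9.31 at 3 h. PCNA, the sliding clamp of replication and itself a p53 target, did not share the direction of the other fork genes: it was at 10.60, 10.50 and 10.75 log2 at 6 h, against 10.51, 10.79 and 10.22 at 3 h, a change of 0.11 ± 0.21.

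The 9 replication-dependent histone genes tested lay on the other side of 0. All 9 were above it and none was called. At an unadjusted p under 0.05, 4 were higher (3 without replicate 2 at 3 h), against 3.54% of all genes. The median was 0.22 log2 (0.20 without that array), beside 0.01 for the list in untreated cells. H2BC4 was at 6.39, 6.20 and 5.84 log2 at 6 h, against 5.57, 5.07 and 5.32 at 3 h (0.82 ± 0.20, unadjusted p = 0.000835). H4C8 was at 5.35, 5.10 and 5.28 log2 at 6 h, against 4.81, 4.71 and 4.73 at 3 h. In 7 of the 9 the arrays at 6 h lay above those at 3 h, against 7.42% of all genes. Histone genes of this class have near-identical copies that can share probes, and most of their transcripts lack a poly(A) tail, so single members are uncertain.

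The mitotic genes were taken as 4 lists: cyclins A and B with CDK1 and its regulators (15 tested), the spindle with its kinesins and passenger proteins (28), the kinetochore and spindle checkpoint (19), and anaphase, cohesion and cytokinesis (18). Of these 80 genes, 77 were lower at 6 h than at 3 h after irradiation, with a median of -0.67 log2. limma called 0 of them. At an unadjusted p under 0.05, 50 were lower and 0 higher, against 3.72% and 3.54% of all genes. In 50 of 80 the 3 arrays at 6 h lay below the 3 at 3 h, against 6.44% of all genes. The median of the same genes was -0.13 in untreated cells and -0.51 for the difference. Without replicate 2 at 3 h, 72 of 80 were below 0, the median was -0.35 and 18 were lower at an unadjusted p under 0.05. In a fit of all 75 arrays, which estimates the spread from all 5 lines, 26 of the 80 were called lower and 0 higher. That fit kept replicate 2 at 3 h and called 45 genes lower in all. Array quality weights called 1 of the 80 lower and the replicate block 3, and every other setting tried called 0.

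By list, the median was -0.46 log2 for the cyclins and CDK1, -0.70 for the spindle, -0.72 for the kinetochore and -0.62 for anaphase and cytokinesis. With replicate 2 at 3 h left out these medians were -0.19, -0.40, -0.39 and -0.30, in the same order of lists. PLK1, the kinase that drives entry into and passage through mitosis, was at 5.37, 5.19 and 4.89 log2 at 6 h, against 6.17, 6.42 and 5.72 at 3 h (-0.95 ± 0.20, unadjusted p = 0.000244). Replicate 2 was the highest of the 3 h arrays, and the groups did not overlap. CCNB1, cyclin B1, was at 7.38, 7.51 and 7.25 log2 at 6 h, against 8.02, 9.06 and 7.98 at 3 h, and CDC20, the activator of the anaphase-promoting complex, at 6.77, 7.10 and 7.06 at 6 h, against 7.47, 8.80 and 7.81 at 3 h. In these genes replicate 2 at 3 h was about as high as the untreated 3 h arrays (8.37, 9.12 and 8.96 log2 for CCNB1).

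KIF14, a kinesin of cytokinesis, had the smallest p of the 80, at 6.22, 5.96 and 5.83 log2 at 6 h, against 6.87, 7.78 and 6.85 at 3 h (-1.16 ± 0.24, adjusted p = 0.1). NEK2, a kinase that splits centrosomes, differed the most, by -1.33 ± 0.32, with 4.88, 5.18 and 4.56 log2 at 6 h, against 5.67, 6.92 and 6.03 at 3 h. TTK, the checkpoint kinase Mps1, differed by -1.15 ± 0.31 log2, and KIF11, the kinesin that pushes spindle poles apart, by -1.09 ± 0.27. CDK1 itself differed by -0.77 ± 0.30, CCNA2 (cyclin A2) by -0.81 ± 0.29 and CCNB2 (cyclin B2) by -0.55 ± 0.22. Several members overlapped between the times: the kinase AURKA (-0.46 ± 0.26), topoisomerase TOP2A (-0.42 ± 0.27), the phosphatase CDC25C (-0.49 ± 0.30), PSRC1 (-0.31 ± 0.22) and FOXM1, the transcription factor of mitotic genes (-0.36 ± 0.22).

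**Figure D2:**
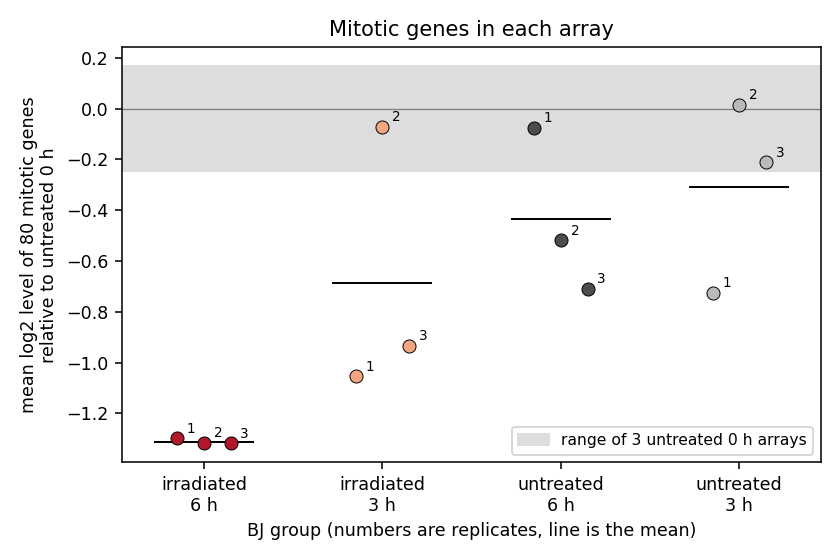
Mean log2 level of the 80 mitotic genes in each BJ array relative to the untreated 0 h arrays (y axis), by group, with replicate numbers, a line at each group's mean and a grey band for the range of the 0 h arrays. The 3 arrays at 6 h after irradiation lie together at -1.30 to -1.32, and replicate 2 at 3 h lies at -0.07 inside the band.

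The promoters of PLK1 and CDC20 are shown for the cell cycle homology region, through which mitotic genes are known to be held down, with source, strand and capitals as for CDC25A above.
PLK1, chr16:23678639-23678888, plus strand: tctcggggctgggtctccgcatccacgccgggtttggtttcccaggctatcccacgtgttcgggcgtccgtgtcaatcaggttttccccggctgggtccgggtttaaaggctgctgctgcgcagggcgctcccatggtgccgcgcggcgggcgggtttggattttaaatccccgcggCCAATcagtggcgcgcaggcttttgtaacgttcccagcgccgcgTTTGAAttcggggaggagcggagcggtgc
CDC20, chr1:43358731-43358980, plus strand: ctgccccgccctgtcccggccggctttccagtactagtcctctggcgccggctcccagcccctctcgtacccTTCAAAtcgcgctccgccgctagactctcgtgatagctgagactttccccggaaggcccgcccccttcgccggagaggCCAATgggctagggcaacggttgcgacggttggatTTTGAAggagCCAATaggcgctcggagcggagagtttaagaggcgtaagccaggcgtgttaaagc

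PLK1 held 1 such region, at -29, with a CCAAT box at -73, and CDC20 held 2, at -178 and -65, with CCAAT boxes at -100 and -55. KIF14 held 1, just after the start, and the windows of CCNB1 and NEK2 held no TTTGAA on either strand. No other letters were searched for this region. The region was found in 43 of 68 mitotic promoters (63.2%) and in 1 of 16 of the G1/S list (6.25%). It was in 4212 of all 27305 (15.4%) and in 10.0% of the 11564 of genes tested in BJ. CCAAT was in 49 of the 68 (72.1%), in 35.7% of all and in 36.0% of those of genes tested in BJ.

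Against untreated cells of the same time, 0 mitotic genes were called lower at 3 h, where 26 genes of all were called (0.18%), and 10 at 6 h, where 34 were called (0.235%). Without replicate 2 of the irradiated 3 h arrays, 1 mitotic gene was called lower at 3 h, of 21 genes called in all. These comparisons use the same irradiated arrays as the comparison of the times, so the values stand side by side and are no separate evidence. PLK1 was at -0.42 log2 against untreated cells at 3 h and at -1.24 at 6 h (adjusted p = 0.0155 at 6 h), and KIF14 at -0.54 at 3 h and -1.34 at 6 h (adjusted p = 0.0224 at 6 h). The untreated arrays themselves were spread: the mitotic mean was -0.08, -0.52 and -0.71 log2 in untreated 6 h arrays, against -0.73, 0.02 and -0.21 in untreated 3 h arrays.

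The p53 targets were split in direction. Of 46 tested in 4 lists (feedback, arrest and stress, death, DNA repair), 1 fell, PPM1D, and 0 rose. Of all genes, 0.0484% fell and 0.0691% rose. At an unadjusted p under 0.05, 10 of the 46 were higher and 9 lower, where 3.54% and 3.72% of all genes were. The median was 0.07 log2. When replicate 2 at 3 h was left out none was called, 10 were higher and 7 lower, and the median was again 0.07. In 13 the 6 h arrays lay above the 3 h arrays and in 10 below, against 7.42% and 6.44% of all genes. Against untreated cells of the same time, 17 of the 46 were called higher at 3 h (14 without replicate 2) and 14 at 6 h. Of all genes, 0.18% were called at 3 h and 0.235% at 6 h, in either direction. These comparisons share arrays with the comparison of the times.

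Among the targets lower at 6 h than at 3 h, AEN, a nuclease, was at 7.75, 7.96 and 7.64 log2 at 6 h, against 8.27, 8.46 and 8.26 at 3 h (-0.55 ± 0.12, unadjusted p = 0.000318). MDM2 was at 8.84, 9.06 and 9.22 log2 at 6 h, against 9.44, 9.65 and 9.36 at 3 h (-0.44 ± 0.12). PLK2, a kinase of the cell cycle and stress, was at 7.35, 7.30 and 7.50 log2 at 6 h, against 7.88, 7.87 and 7.88 at 3 h (-0.50 ± 0.12). In these 3 genes the groups did not overlap, and none was called. GDF15, a secreted stress cytokine, differed by -0.48 ± 0.15, SESN1, a relative of SESN2, by -0.51 ± 0.17, TP53INP1, a cofactor of p53, by -0.49 ± 0.12, and the death receptor TNFRSF10A by -0.89 ± 0.24. In untreated cells GDF15 differed by 0.52 ± 0.15 and SESN1 by 0.34 ± 0.17, upward.

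CDKN1A was at 11.53, 11.52 and 11.47 log2 at 6 h, against 11.66, 11.60 and 11.71 at 3 h, a small difference of -0.15 ± 0.10 with a 95% interval of -0.37 to 0.06, although the groups did not overlap. Untreated cells had 10.55, 10.49 and 10.36 log2 of CDKN1A at 6 h, against 10.62, 10.23 and 10.28 at 3 h, so every irradiated array was above every untreated one. The death receptor FAS (0.08 ± 0.08), the metabolic regulator TIGAR (-0.06 ± 0.10) and TNFRSF10B (0.02 ± 0.09) had intervals that included 0.

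Other targets were higher at 6 h. PTCHD4, a patched-related membrane protein, was at 4.31, 3.83 and 4.58 log2 at 6 h, against 3.54, 3.41 and 3.31 at 3 h (0.82 ± 0.18, unadjusted p = 0.00028), from a level at the limit of the filter. DDB2, the damage sensor of nucleotide excision repair, was at 8.46, 8.31 and 8.62 log2 at 6 h, against 8.0, 8.19 and 7.94 at 3 h (0.42 ± 0.11). CABYR, a calcium-binding protein, was higher by 0.58 ± 0.15 and XPC, another damage sensor of excision repair, by 0.22 ± 0.10. Of the 7 DNA repair targets, 6 were above 0, and in 4 the 6 h arrays lay above the 3 h arrays, against 7.42% of all genes. In untreated cells DDB2, PTCHD4 and CABYR differed by 0.00 ± 0.11, -0.16 ± 0.18 and -0.09 ± 0.15. None of these genes was called.

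**Figure D3:**
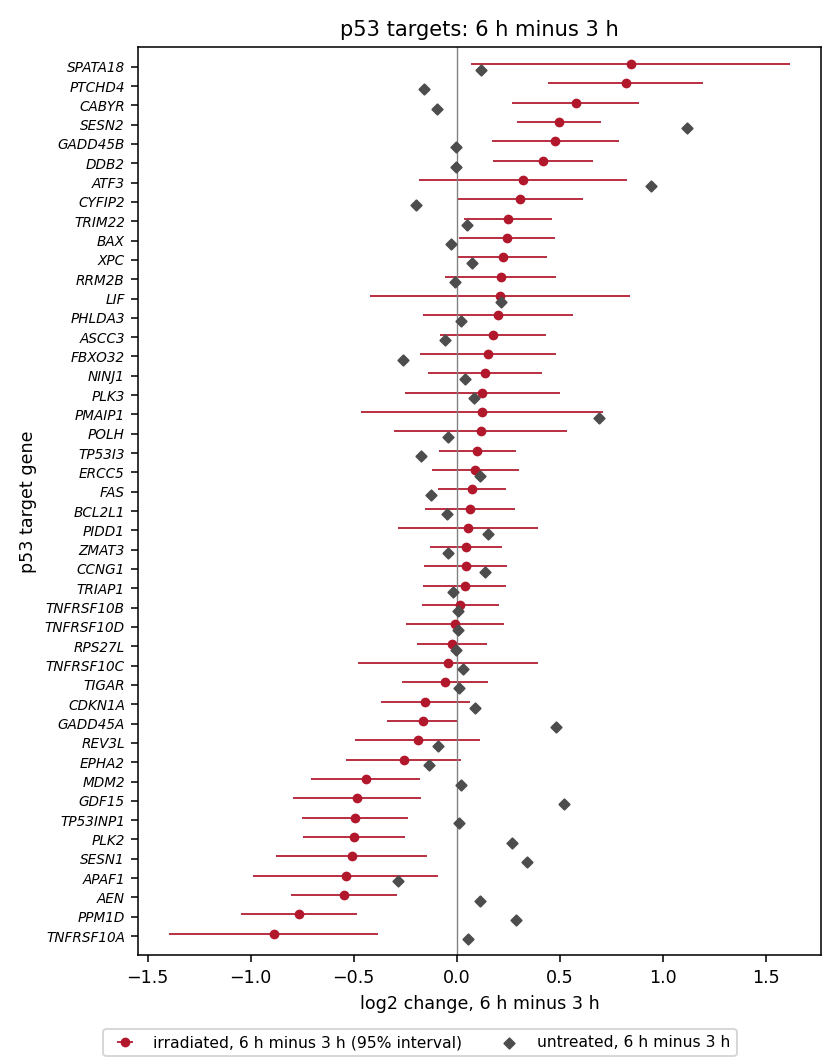
Change between the times, 6 h minus 3 h in log2 (x axis), of the 46 p53 targets tested, in irradiated cells with 95% intervals (red) and in untreated cells (grey diamonds). TNFRSF10A, PPM1D and AEN lie at the lower end and SPATA18, PTCHD4 and CABYR at the upper end, with CDKN1A and FAS near 0.

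The list of the integrated and unfolded protein stress responses, which slow translation and switch on ATF4 and CHOP, held 20 tested genes. Of these, 3 rose (CHAC1, DDIT3 and DDIT4) and 0 fell, where 0.0691% and 0.0484% of all genes did. At an unadjusted p under 0.05, 8 of the 20 were higher and 0 lower, against 3.54% and 3.72% of all genes. Without replicate 2 at 3 h the same 3 genes were called, and 6 were higher and 1 lower at that threshold. ATF4 itself was at 11.71, 11.55 and 11.89 log2 at 6 h, against 11.56, 11.14 and 11.31 at 3 h (0.38 ± 0.11), and the groups overlapped. SLC3A2, an amino acid transporter subunit, was higher by 0.49 ± 0.14, against -0.16 ± 0.14 in untreated cells. SESN2, which is on this list and on that of p53, was at 8.60, 8.56 and 8.68 log2 at 6 h, against 8.21, 8.13 and 8.02 at 3 h (0.50 ± 0.10, adjusted p = 0.0648). Its untreated rise is given above, and the difference between its 2 time changes was not called. The median of the list was 0.16 in irradiated cells (0.11 without replicate 2 at 3 h) and -0.05 in untreated cells.

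Clock genes, which cycle with the time of day, had like medians with and without irradiation. Of 14 tested, 1 rose, the repressor NFIL3, and 0 fell, where 0.0691% and 0.0484% of all genes did. At an unadjusted p under 0.05, 8 were lower after irradiation and 5 in untreated cells. Of all genes, 3.72% were lower at that threshold after irradiation and 1.27% in untreated cells. With replicate 2 at 3 h left out, 6 of the 14 were lower after irradiation. The median was -0.32 log2 after irradiation and -0.29 in untreated cells. CIART, a repressor of the clock, was at 6.24, 6.31 and 6.51 log2 at 6 h after irradiation, against 6.84, 7.06 and 7.19 at 3 h (-0.68 ± 0.15), and the untreated difference was -0.88 ± 0.15. NR1D2, the receptor REV-ERB beta, differed by -0.52 ± 0.11 after irradiation and by -0.46 ± 0.11 in untreated cells, and BHLHE40 by -0.57 ± 0.16 and -0.62 ± 0.16. None of these 3 was called in either.

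**Figure D4:**
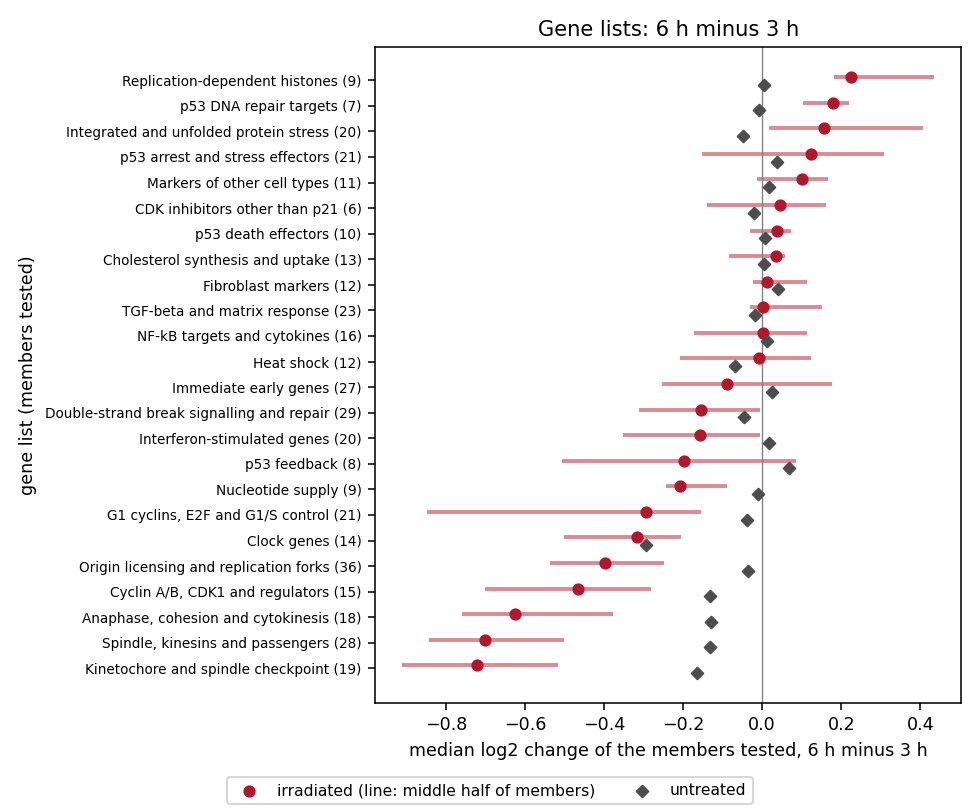
Median log2 change, 6 h minus 3 h (x axis), of the tested members of each gene list in irradiated cells (red, with a line from the lower to the upper quartile of the members) and in untreated cells (grey diamonds). The 4 mitotic lists lie lowest in irradiated cells, at -0.46 to -0.72, against -0.13 to -0.17 in untreated cells, and the clock genes lie at -0.32 and -0.29. With replicate 2 at 3 h left out, the spindle (-0.40) and kinetochore (-0.39) lists still have the lowest medians. Those of anaphase and cytokinesis (-0.30) and of the cyclins and CDK1 (-0.19) then lie above that of the clock genes (-0.33).

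Other groups held few or no calls. Of 27 immediate early genes 1 fell, where 0.0484% of all genes did. This gene, IER5, was at 9.67, 9.54 and 9.41 log2 at 6 h, against 10.15, 10.16 and 10.0 at 3 h. Without replicate 2 at 3 h IER5 was not called, and MYC, the growth factor-responsive regulator, was called instead (0.77 log2, adjusted p = 0.0338). With all arrays MYC was higher by 0.64 ± 0.13 (adjusted p = 0.0747), while EGR1 (0.26 ± 0.34) and FOS (0.40 ± 0.25) were within their spread. limma called none of the tested genes for breaks of both DNA strands (29), targets of NF-kB (16), interferon-stimulated genes (20), heat shock (12), cholesterol synthesis (13), TGF-beta and matrix (23) or inhibitors of cyclin-dependent kinases other than p21 (6). At an unadjusted p under 0.05, counts of higher and lower genes were 0 and 4 for the strand breaks, 0 and 0 for NF-kB, 0 and 2 for interferon, 1 and 1 for heat shock, 0 and 0 for cholesterol, 0 and 0 for TGF-beta and 0 and 1 for the inhibitors. Of all genes, 3.54% were higher and 3.72% lower at that threshold. The 4 for the strand breaks included the checkpoint kinase CHEK1 (-0.64 ± 0.25) and RAD51AP1 (-0.72 ± 0.31), whose levels also follow S phase. With replicate 2 at 3 h left out, 0 of the 29 were lower at that threshold and the median was -0.01 log2, against -0.15 with it. Interferon-stimulated genes, heat shock and the inhibitors of cyclin-dependent kinases then had 0 in either direction, and NF-kB had 1 higher and 0 lower.

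The time change of BJ was set against those of irradiated U2OS and TK6 in 1 fit of all 75 arrays. BJ differed from U2OS in 4 genes (0.0262% of 15262), and from TK6 in 96 (0.629% of 15261), of which 7 were higher and 89 lower in BJ. Of 81 mitotic genes tested, 37 differed from TK6, all lower in BJ, and 0 differed from U2OS. The median change of these genes was -0.67 log2 in BJ, against -0.26 in U2OS and 0.25 in TK6, where 18 were called higher at 6 h than at 3 h (1.51% of all genes were). Without replicate 2 of BJ at 3 h the BJ median was -0.35, and the median difference was -0.04 log2 from U2OS and -0.57 from TK6, against -0.36 and -0.94 with that array. KIF20A, a kinesin of cytokinesis, changed by -0.84 log2 in BJ, against 1.14 in TK6, a difference of -1.98 ± 0.24 (adjusted p = 1.19e-07). PSRC1, a spindle protein, changed by -0.31 in BJ, against 1.69 in TK6. Without replicate 2 of BJ at 3 h, 48 genes differed from TK6, among them 16 mitotic ones, and 4 from U2OS. In a fit of the 30 arrays of BJ and TK6 alone, 24 mitotic genes were called lower in BJ. Over all settings tried, that count ran from 3, with replicate 2 of every group left out, to 47, with the replicate block within line. Without replicate 1 of U2OS at 3 h, 30 genes differed from U2OS.

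Of the 20 genes of the stress list, 1 differed from U2OS and 3 differed from TK6, all higher in BJ, with median differences of -0.03 and 0.07 log2 over the list. CHAC1 changed by 1.93 log2 in BJ, against 0.30 in U2OS and 0.31 in TK6, and both differences were called (adjusted p = 0.0309 and 0.00323). With each of the 12 compared arrays left out in turn, the difference from U2OS was called in 6 of 12 fits (largest adjusted p 0.0904) and that from TK6 in 12 of 12. DDIT3 and DDIT4 changed by 1.45 and 2.02 in BJ, against 0.39 and 0.16 in TK6 (adjusted p = 0.00701 and 0.000567), and their differences from U2OS were not called (adjusted p = 0.0535 and 0.0826). These line comparisons set irradiated arrays against each other and did not subtract the untreated time change. In untreated BJ cells CHAC1 also rose, by 1.49 log2, and DDIT3 and DDIT4 were higher, not called. Whether the untreated time change differed between lines was not tested. CDC25A differed from TK6 by -1.43 ± 0.32 and ZNF367 by -1.59 ± 0.35, both called (each in 11 of 12 such fits), and from U2OS by -1.17 ± 0.32 and -1.57 ± 0.35, neither called.

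**Figure D5:**
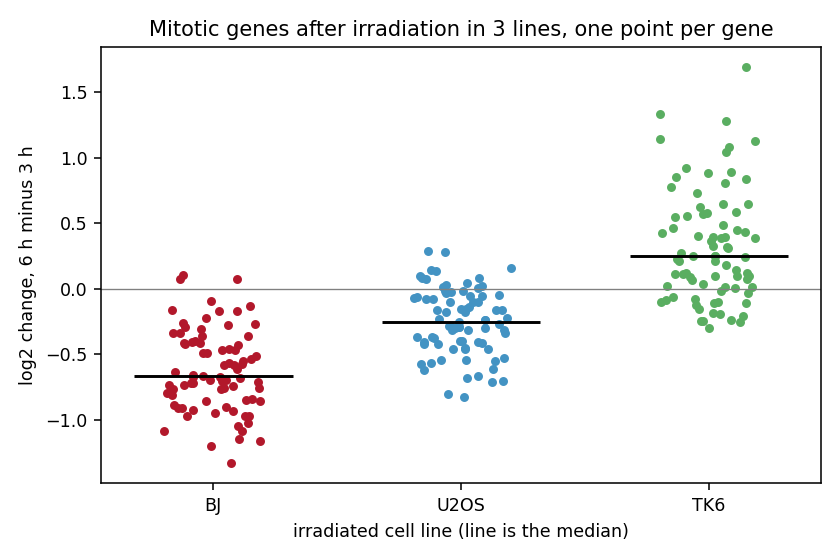
Log2 change between 6 h and 3 h after irradiation (y axis) of the mitotic genes in BJ, U2OS and TK6, with 1 point per gene and a line at the median. The medians are -0.67 in BJ (-0.35 without replicate 2 at 3 h), -0.26 in U2OS and 0.25 in TK6.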

How the data were processed

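RNA in 75 samples of 5 cell lines was measured on single-channel Affymetrix arrays with biotin-labelled cRNA, per the labels' protocols. The authors deposited log2 values made with RMA, per the submitters' processing notes; its version, and whether lines were normalized together, are not given in the sources used here. Scanner files were not used here.

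Of 54675 probe sets, 41097 carried 1 gene symbol, 1801 several and 11777 none. Each of 19775 genes was represented by its brightest probe set, judged by the mean of all 75 arrays. A level filter (mean over the 15 BJ arrays above the 40th percentile) left 14467 genes. limma 3.58.1 in R 4.3.3 fitted the means of the 5 BJ groups with a variance trend, with Benjamini-Hochberg adjustment over all genes tested, and the fit was tested on simulated data. Lines were compared in 1 fit of 75 arrays, over genes past the filter in either line. Groups came from the array titles. The number of arrays limits the precision.

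The members and lists were chosen with earlier results of these data known, so lists are described by counts and medians. Genes were named by rule: up to 15 called in each direction, filled up by the smallest p, up to 6 per list by p, a fixed core of cell cycle and p53 genes, and up to 10 called in each other comparison; not every gene that the rule allows is printed. Same-numbered arrays correlated at 0.23, 0.01 and 0.10 in their deviations from the group means of the irradiated arrays at 6 h and 3 h. The highest correlations with another number were 0.04, 0.20 and -0.03. In untreated arrays the values were 0.07, 0.03 and 0.42, against 0.13, 0.17 and -0.16. The signs of pairing between the times were thus mixed, and numbers were not taken as pairs. Irradiated and untreated arrays of the same number and time were not correlated, so pairing between these was not tested. Alternatives covered the filter, normalization, probe sets, arrays in the fit, array weights, trend, replicate block and left-out arrays.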

Additional observations from a re-analysis of the deposited data

Results flagged for a closer look

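The time change after irradiation, 6 h minus 3 h, was tested between BJ and each of 2 other lines, and all results here passed that test of the difference. The untreated time change was not subtracted in any line, so a difference in time in culture cannot be told apart from one in the response to radiation. BJ differed from U2OS in 4 genes. CHAC1 (1.64 log2) and TMEM216 (1.04) were higher and PCDH17 (-1.40) and ATOSA (-1.57) lower in BJ. ATOSA changed by 0.01 in BJ, against 1.58 in U2OS, and TMEM216 by -0.04 in BJ, against -1.08 in U2OS. With each of the 12 compared arrays left out in turn, PCDH17 and ATOSA were called in all 12 fits, CHAC1 in 6 and TMEM216 in 3.

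BJ differed from TK6 in 96 genes. Of the 10 with the smallest p, 8 were on the mitotic lists: KIF20A (-1.98 log2), CENPE (-2.20), KIF14 (-2.0), PSRC1 (-2.0), DEPDC1 (-1.94), BUB1B (-1.50), CENPF (-1.44) and ASPM (-1.77). The others were CKAP2L (-1.75), a spindle protein, and TGIF1 (-1.48), a repressor of TGF-beta signalling, which changed by -0.08 in BJ, against 1.40 in TK6. Of the genes called in BJ itself, DDIT4 (1.86), CHAC1 (1.62), RASGRP1 (1.34) and DDIT3 (1.06) differed upward and ZNF367 (-1.59), CDC25A (-1.43) and JMJD6 (-0.83) downward. In TK6 itself 18 mitotic genes were called higher at 6 h than at 3 h, where 1.51% of all genes were. Groups of 3 arrays were not tested for outlying samples.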

How the results depend on the processing

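Against 17 genes called between 6 h and 3 h after irradiation, 51 were called in 1 fit of all 75 arrays (6 higher and 45 lower, 9 shared with the 17), 38 with array quality weights, 57 with the replicate number as a block (20 higher and 37 lower, all 17 among them), 7 without the variance trend, 6 in a fit of the compared arrays alone and 1 to 9 with replicates left out. The cause was not tested, except that leaving out arrays leaves fewer samples. No filter, quantile normalization and the mean of probe sets stayed within 1.5 times of 17. The replicate block rests on numbers whose signs of pairing between the times were mixed and which were not taken as pairs. Pairing between irradiated and untreated arrays was not tested. In untreated cells the count of 3 became 5 in the 75-array fit, with array weights and with the replicate block, and 0 to 4 with replicates left out. The difference of the time changes had 2 calls in the 75-array fit and 0 otherwise. Against U2OS the 4 became 7 without a filter, 8 with quantile normalization, 9 with the mean of probe sets, 48 with the replicate block within line and 0 to 76 with replicates left out. Against TK6 the 96 became 305 with that replicate block and 6 to 334 with replicates left out. The mitotic median was below 0, from -0.84 to -0.35, with each of the 6 arrays left out, with quantile normalization and with the mean of probe sets, which were chosen after seeing the data. The 17 called genes kept their sign in all 289 values, 158 of which were not called. Of 799 values of 47 other named genes, 8 turned sign. These were ZNF451 (0.0315) and FAS (-0.0152) with the mean of probe sets, CDC25C without replicate 2 (0.016, with -0.798 to 0.016 over the fits with arrays left out), PSRC1 without replicate 2 (0.0099, with -0.545 to 0.0099), PCNA without replicate 3 (-0.0989, with -0.0989 to 0.308) or that replicate at 3 h alone (-0.0323), and EGR1 without replicate 2 (-0.181, with -0.181 to 0.577) or that replicate at 6 h alone (-0.0925).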
